A study of Mus musculus with 6 samples.

Results

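The transcripts of 10 chemokine ligands of macrophages were followed in RNA-seq libraries of BMMs with and without *Aif1*. The ligands were *Ccl2*, *Ccl3*, *Ccl4*, *Ccl5*, *Ccl6*, *Ccl7*, *Ccl9*, *Cxcl2*, *Cxcl10* and *Cxcl16*, taken as a named list of CC and CXC genes and matched by symbol to 10 of the 47729 Ensembl genes in the count files. BMMs here are bone marrow-derived macrophages: marrow of the long bones of mice aged 8 weeks was grown into macrophages and then immortalized with the SV40 large T antigen. There were 3 libraries from *Aif1*-/- cells, of mice that lack the gene in every tissue, and 3 from WT cells. Both genotypes were labelled C57BL/6J. Both were grown in α-MEM with 10% FBS and 120 ng/ml CSF-1, at passages 3 to 5, and the labels name no added stimulus, so the values are those of immortalized cells growing in CSF-1. The mice were male. The study describes the animals as independent, but does not say whether each library is a separately immortalized line. The p-values therefore measure the spread between these libraries, which may in part be technical.

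The values are reads counted per gene. Counts on genes came to 17707986 to 26486393 per *Aif1*-/- library and 23253869 to 29314253 per WT library, and the ligands took 0.0427% to 0.0448% of them in *Aif1*-/- libraries against 0.0505% to 0.0544% in WT libraries. *Aif1* itself had 4, 4 and 1 reads in *Aif1*-/- libraries and 220, 157 and 239 reads in WT libraries, so the genotype labels fit the targeted gene. The series' design text writes the knockout as *Aif1l*-/- in 1 place, whereas the sample labels write *Aif1*. WT replicates differed among themselves more than *Aif1*-/- replicates did, with a chi-square per gene of 12.7 to 56.4 between WT pairs and 2.67 to 3.82 between *Aif1*-/- pairs, and WT replicate 3 was in both of the highest pairs. The calls of the 10 ligands were also made without WT replicate 3. All 9 macrophage markers were present, with a summed level of 123871 to 125903 normalized counts in *Aif1*-/- libraries and 85382 to 104006 in WT libraries. Of these markers, *Mertk* (log2 fold change 0.82), *Lyz2* (0.75), *Csf1r* (0.48), *Fcgr1* (0.41), *Itgam* (0.41) and *Adgre1* (0.40) were higher in *Aif1*-/- cells and *Cd14* (−0.40) was lower. The part of this shift in the ligand differences was not tested. In bulk RNA, fewer cells that express a gene and less RNA of it per cell cannot be told apart.

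Chemokines are small secreted proteins that make leukocytes migrate by binding G protein-coupled receptors. They are held on heparan sulfate of cell surfaces and matrix, and are sorted into CC and CXC families by whether the first pair of conserved cysteines is adjacent or split by a residue. Macrophages are a major source of both families: the CC ligands of CCR2 call monocytes out of the blood, the ligands of CCR1 act on monocytes, macrophages and T cells, and the CXC ligands act on neutrophils or on T and NK cells. Many of the genes lie side by side in clusters that arose by duplication, and their transcription in macrophages is classically driven by NF-kB, AP-1 and, for some, interferon-activated STAT and IRF factors.

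The ligands split by gene, not as a group. In *Aif1*-/- cells 4 ligands were higher (*Cxcl2*, *Ccl6*, *Cxcl16* and *Ccl2*), 5 were lower (*Ccl3*, *Ccl5*, *Cxcl10*, *Ccl4* and *Ccl9*), and *Ccl7* did not pass the test. All 10 passed the filter on low counts. Calls are those of edgeR's quasi-likelihood test with adjusted p below 0.05, Benjamini-Hochberg over all 17406 genes tested, of which 8.04% were called higher, 10.5% lower and 18.6% in either direction. For all 10 ligands the 3 *Aif1*-/- libraries lay wholly above or wholly below the 3 WT libraries, a pattern seen in 35.7% of the genes tested. The size of the log2 fold change had a median of 0.72 over the 10 ligands, against 0.20 over all genes tested and 0.66 over the 3231 called genes. The signed median was −0.33 over the ligands and −0.0035 over all genes tested. The ligands were listed with earlier results of these data known, so these contrasts with all genes may partly reflect that choice. A log2 fold change here is *Aif1*-/- over WT, so that a positive value means more transcript in *Aif1*-/- cells, and normalized counts are reads scaled to the mean library size.

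**Figure D1:**
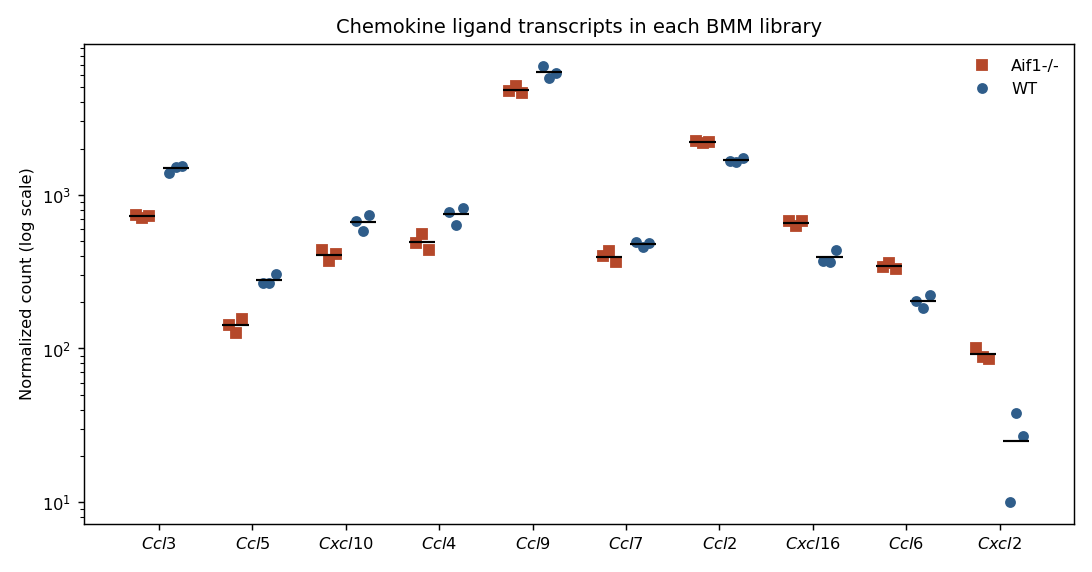
Normalized counts (log scale) of the 10 ligands in each library, with *Aif1*-/- libraries as red squares left of WT libraries as blue circles and a bar at each group's mean. From *Ccl3* at the left to *Ccl7* the *Aif1*-/- squares lie below the WT circles, and from *Ccl2* to *Cxcl2* at the right they lie above them, with no overlap for any ligand.

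*Ccl2* and *Ccl7* encode the ligands of CCR2, the receptor that brings inflammatory monocytes to tissue. The genes stand 8.258 kb apart on the plus strand of chromosome 11 (GRCm38, *Ccl2* at 82035571 to 82037453 and *Ccl7* at 82045712 to 82047525). *Ccl2* had 2237, 2188 and 2195 normalized counts in *Aif1*-/- libraries and 1651, 1637 and 1734 in WT libraries. The replicates were close together in both genotypes, and every *Aif1*-/- library was above every WT library. *Ccl2* averaged 2207 ± 26.6 in *Aif1*-/- cells and 1674 ± 52.8 in WT cells (SD, n = 3 each). This was a log2 fold change of 0.40 (95% interval 0.26 to 0.54, edgeR adjusted p = 0.00140). Its change was the smallest of the 4 ligands called higher.

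*Ccl7* had 397, 429 and 363 normalized counts in *Aif1*-/- libraries and 493, 457 and 486 in WT libraries. All *Aif1*-/- libraries were below all WT libraries, but the distance was short: the highest *Aif1*-/- library and the lowest WT library were 429 and 457. The log2 fold change was −0.27 (95% interval −0.50 to −0.04), which did not pass the test over all genes (edgeR adjusted p = 0.103). The fitted values of these neighbouring CCR2 ligands thus had opposite signs. Reads of *Ccl2* outnumbered reads of *Ccl7* by 5.62, 5.10 and 6.03 times in *Aif1*-/- libraries and by 3.35, 3.58 and 3.57 times in WT libraries. This ratio inside a library does not depend on scaling between libraries.

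*Ccl3* and *Ccl4* encode the macrophage inflammatory proteins, which attract monocytes, macrophages and T cells. They lie 13.228 kb apart on chromosome 11 and are read from opposite strands (*Ccl3* at 83647844 to 83649355 on the minus strand, *Ccl4* at 83662584 to 83664683 on the plus strand). *Ccl3* had 737, 707 and 727 normalized counts in *Aif1*-/- libraries and 1378, 1526 and 1545 in WT libraries. The replicates of each genotype sat in a narrow band, and the WT band was far above the other. The coefficient of variation was 2.07% in *Aif1*-/- cells and 6.14% in WT cells, where counting error alone would give 3.96% and 2.45%. *Ccl3* fell to 724 ± 14.98 in *Aif1*-/- cells, against 1483 ± 91.1 in WT cells (SD, n = 3 each), with a log2 fold change of −1.04 (95% interval −1.21 to −0.86, edgeR adjusted p = 6.18e-06). It had the lowest adjusted p of the 10 ligands.

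*Ccl4* had 488, 555 and 440 normalized counts in *Aif1*-/- libraries and 773, 641 and 822 in WT libraries. The groups did not overlap, with more spread in both than for *Ccl3*. The log2 fold change of *Ccl4* was −0.59 (95% interval −0.86 to −0.32, edgeR adjusted p = 0.00669). Reads of *Ccl3* exceeded those of *Ccl4* by 1.51, 1.27 and 1.65 times in *Aif1*-/- libraries and by 1.78, 2.38 and 1.88 times in WT libraries, without overlap between the genotypes.

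*Ccl5*, which encodes RANTES, a ligand of CCR1 and CCR3 that draws T cells and monocytes, lies at the other end of the same cluster (chromosome 11, 83525778 to 83530518, minus strand). It had 142, 127 and 157 normalized counts in *Aif1*-/- libraries and 267, 266 and 303 in WT libraries. The highest *Aif1*-/- library was far below the lowest WT library. *Ccl5* fell to 142 ± 15.1 in *Aif1*-/- cells, against 279 ± 20.9 in WT cells (SD, n = 3 each), with a log2 fold change of −0.98 (95% interval −1.28 to −0.67, edgeR adjusted p = 0.000646). *Ccl3* and *Ccl5* were the ligands with the largest decreases.

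*Ccl6* and *Ccl9* are found in rodents, encode ligands of CCR1 and are expressed by myeloid cells. They are neighbours on the minus strand of chromosome 11, 9.245 kb apart (*Ccl9* at 83572919 to 83578636, *Ccl6* at 83587882 to 83593087). *Ccl6* had 337, 361 and 328 normalized counts in *Aif1*-/- libraries and 203, 183 and 223 in WT libraries. All *Aif1*-/- libraries were above all WT libraries, by a distance larger than the spread within either genotype. The log2 fold change of *Ccl6* was 0.75 (95% interval 0.48 to 1.02, edgeR adjusted p = 0.00163).

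*Ccl9* had the most reads of the 10 ligands in every library. It had 4726, 5125 and 4606 normalized counts in *Aif1*-/- libraries and 6908, 5773 and 6179 in WT libraries. The groups did not overlap, and WT replicate 1 stood highest. *Ccl9* fell to 4819 ± 272 in *Aif1*-/- cells, against 6287 ± 575 in WT cells (SD, n = 3 each), with a log2 fold change of −0.38 (95% interval −0.56 to −0.20, edgeR adjusted p = 0.00737). It was the only ligand call that depended on a single library: without *Aif1*-/- replicate 1 the value was −0.36 (edgeR adjusted p = 0.0555) and without *Aif1*-/- replicate 3 it was −0.35 (edgeR adjusted p = 0.0588). *Ccl9* and *Ccl6* therefore moved in opposite directions. Reads of *Ccl9* outnumbered those of *Ccl6* by 14.03, 14.18 and 14.02 times in *Aif1*-/- libraries, and by 33.9, 31.4 and 27.7 times in WT libraries.

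**Figure D2:**
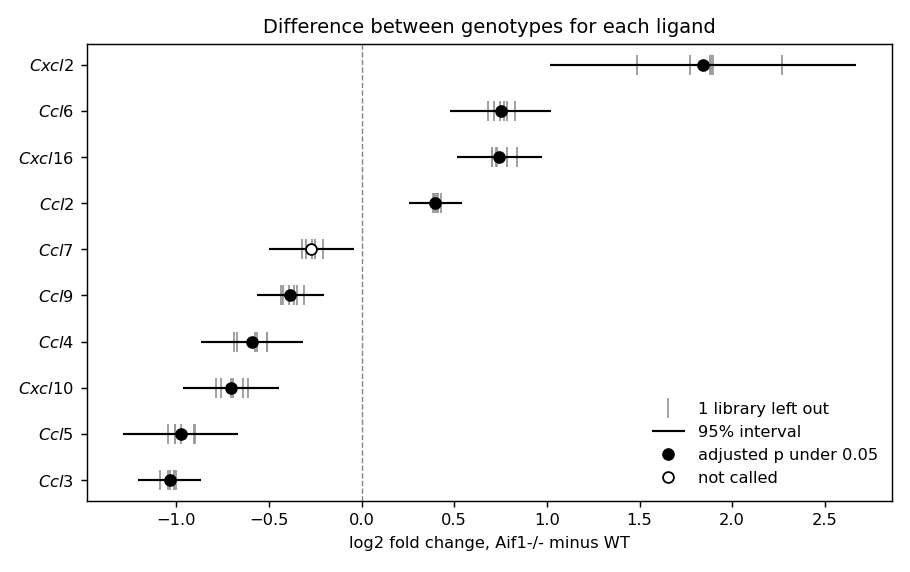
Fitted log2 fold change (*Aif1*-/- minus WT) of each ligand as a circle, with its 95% interval as a line and the values with 1 library left out as grey ticks; filled circles are adjusted p under 0.05 in edgeR's test. The values run from −1.04 for *Ccl3* to 1.84 for *Cxcl2*, whose interval and ticks are the widest, and no tick lies on the other side of 0 from its circle.

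*Cxcl10* encodes an interferon-inducible ligand of CXCR3 that attracts activated T cells and NK cells (chromosome 5, 92346638 to 92348889, minus strand). It had 439, 372 and 409 normalized counts in *Aif1*-/- libraries and 676, 580 and 736 in WT libraries. The lowest WT library was well above the highest *Aif1*-/- library. *Cxcl10* fell to 407 ± 33.8 in *Aif1*-/- cells, against 664 ± 78.6 in WT cells (SD, n = 3 each), with a log2 fold change of −0.70 (95% interval −0.96 to −0.45, edgeR adjusted p = 0.00168). The other CXCR3 ligands were near the limit of detection: *Cxcl9* had 10 reads over the *Aif1*-/- libraries and 4 over the WT libraries, and *Cxcl11*, annotated as a polymorphic pseudogene in this strain's genome, had 20 and 22.

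*Cxcl2* encodes a ligand of CXCR2 that attracts neutrophils (chromosome 5, 90903871 to 90905938, plus strand). It was the scarcest of the 10 ligands and the one with the largest fold change. *Cxcl2* had 101, 87.9 and 85.6 normalized counts in *Aif1*-/- libraries and 10.1, 38.2 and 27.0 in WT libraries. These rest on 114, 66 and 65 reads in *Aif1*-/- libraries and 10, 45 and 32 reads in WT libraries. The *Aif1*-/- libraries were close together and the WT libraries were not, with a coefficient of variation of 8.90% in *Aif1*-/- cells and 56.5% in WT cells, where counting error alone would give 11.1% and 18.6%. *Cxcl2* averaged 91.4 ± 8.13 in *Aif1*-/- cells and 25.1 ± 14.2 in WT cells (SD, n = 3 each). This was a log2 fold change of 1.84 (95% interval 1.02 to 2.67, edgeR adjusted p = 0.00559). With each library left out in turn the log2 fold change was 1.49 to 2.27, and the call was kept each time. *Cxcl1*, its close paralog, had 5 reads over the *Aif1*-/- libraries and 0 over the WT libraries, and *Cxcl3* had 5 and 2, both below the filter on low counts.

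*Cxcl16* encodes a transmembrane ligand of CXCR6 that also takes up oxidized lipoprotein and is released from the surface by the proteases ADAM10 and ADAM17. It lies on chromosome 11 apart from the CC clusters (70453983 to 70459984, minus strand). *Cxcl16* had 671, 623 and 677 normalized counts in *Aif1*-/- libraries and 371, 367 and 438 in WT libraries. All *Aif1*-/- libraries were far above all WT libraries. *Cxcl16* averaged 657 ± 29.4 in *Aif1*-/- cells and 392 ± 39.9 in WT cells (SD, n = 3 each). This was a log2 fold change of 0.74 (95% interval 0.51 to 0.98, edgeR adjusted p = 0.000561). A fold close to that of *Ccl6* was thus seen in a gene of another family and locus.

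Some of these genes overlap a gene on the other strand, and reads of such a pair may not be fully separated in the counts. The partners had few reads of their own: *Gm17268* at *Ccl2* had 1 read over the *Aif1*-/- libraries and 3 over the WT libraries, *E230016K23Rik* at *Ccl6* had 11 and 23, and *Art3* at *Cxcl10* had 12 and 32. *Zmynd15* at *Cxcl16* had 84 and 55, against 1742 and 1321 reads of *Cxcl16* itself.

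Promoter sequence from RefSeq (GRCm38.p6) was held for 5 of the ligands, namely *Cxcl2*, *Cxcl10*, *Ccl9*, *Ccl6* and *Ccl3*. It was searched on both strands, over the 250 bases before the start, for the NF-kB motif, the interferon-stimulated response element (ISRE, GAAA and GAAA with 2 bases between), AP-1 (TGANTCA), the STAT element GAS (TTCNNNGAA) and a TATA box (TATAAA). Over all 32851 promoters in the table, 7.25% held the NF-kB motif, 2.98% the ISRE, 6.75% AP-1, 7.02% GAS and 12.4% the TATA letters. *Cxcl10* held the ISRE 213 to 204 bases before the start, the NF-kB motif at 159 to 150 and, in overlapping copies, at 104 to 94, and AP-1 at 74 to 68. *Cxcl2*, the ligand with the largest increase, held the NF-kB motif at 97 to 87 in overlapping copies, without the ISRE. *Ccl9* held the NF-kB motif on the other strand at 35 to 26, AP-1 at 53 to 47 and TATA letters. These letters were not in the windows of *Ccl3* and *Ccl6*. A match is a description of the letters and not evidence of binding. The stretches of *Cxcl10*, *Cxcl2* and *Ccl9* are shown because these 3 genes differed in direction while all holding NF-kB letters. They run 5′ to 3′ on the strand of the gene, and capitals mark the ISRE and NF-kB matches, with the ISRE the leftmost in *Cxcl10*. The *Cxcl10* stretch is chr5:92348940-92349119 (minus strand), the *Cxcl2* stretch chr5:90903739-90903848 (plus strand) and the *Ccl9* stretch chr11:83578657-83578746 (minus strand).
Cxcl10: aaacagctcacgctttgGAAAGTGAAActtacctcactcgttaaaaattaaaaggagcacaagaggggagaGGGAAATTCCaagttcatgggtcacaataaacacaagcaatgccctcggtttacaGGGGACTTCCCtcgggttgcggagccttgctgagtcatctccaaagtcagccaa
Cxcl2: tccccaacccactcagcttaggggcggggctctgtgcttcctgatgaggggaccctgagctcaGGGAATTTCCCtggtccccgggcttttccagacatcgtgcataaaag
Ccl9: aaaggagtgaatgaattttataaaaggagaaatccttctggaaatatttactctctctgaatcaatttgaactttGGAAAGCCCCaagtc

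The order of the ligands by abundance was compared per kilobase of exon, since a longer transcript gives more reads. In *Aif1*-/- cells *Ccl2* was first, with 1939 ± 23.3 normalized counts per kb, then *Ccl9* with 1583 ± 89.2 and *Ccl3* with 945 ± 19.6. In WT cells *Ccl9* was first with 2065 ± 189 normalized counts per kb, then *Ccl3* with 1936 ± 119 and *Ccl2* with 1471 ± 46.4 (SD, n = 3 each). On this measure *Ccl2* stood ahead of *Ccl9* in *Aif1*-/- cells, whereas *Ccl9* had the most reads in every library of both genotypes. The lengths are those of all annotated exons of a gene merged (3045 bases for *Ccl9*, 1138 for *Ccl2*), not of the transcript expressed. The order between genes therefore depends on the annotation. *Ccl4* and *Ccl7* were the fourth and the fifth in both genotypes, and *Cxcl2* was last in both. The places between were taken by *Cxcl16*, *Ccl6*, *Cxcl10* and *Ccl5* in that order in *Aif1*-/- cells, and by *Cxcl10*, *Ccl5*, *Cxcl16* and *Ccl6* in WT cells. Most neighbours in these orders did not overlap between libraries. The exceptions were *Ccl6* and *Cxcl10* in *Aif1*-/- cells, and *Ccl9* with *Ccl3*, *Cxcl10* with *Ccl5*, and *Cxcl16* with *Ccl6* in WT cells. Set among all 17406 genes tested, per kilobase, *Ccl9*, *Ccl2* and *Ccl3* stood at the 95.8, 96.8 and 92.0 percentile in *Aif1*-/- cells and at the 97.1, 95.5 and 96.8 percentile in WT cells, whereas *Cxcl2* stood at 29.5 in *Aif1*-/- cells and 11.1 in WT cells.

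*Ccl2* made up 29.9% of the summed per-kilobase level of the 10 ligands in *Aif1*-/- cells and 18.3% in WT cells. *Ccl3* made up 14.6% in *Aif1*-/- cells and 24.1% in WT cells. *Ccl9* had a similar share of 24.4% in *Aif1*-/- cells and 25.7% in WT cells, and so did *Ccl7* with 7.62% and 7.43%. *Cxcl16* and *Ccl6* held small shares that were larger in *Aif1*-/- cells, at 3.35% and 2.93% there and 1.61% and 1.41% in WT cells. The summed normalized counts were 10275, 10575 and 9987 in *Aif1*-/- libraries and 12730, 11469 and 12494 in WT libraries. The total was lower in every *Aif1*-/- library, with a log2 ratio of −0.25 (exact permutation p = 0.1, the smallest that 3 against 3 libraries allow). Much of that total is *Ccl9*, and without it the log2 ratio was −0.12 (exact permutation p = 0.1). The CXC ligands together averaged 1155 ± 65.7 normalized counts in *Aif1*-/- cells and 1081 ± 110 in WT cells, and these groups overlapped (log2 ratio 0.10, exact permutation p = 0.4).

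**Figure D3:**
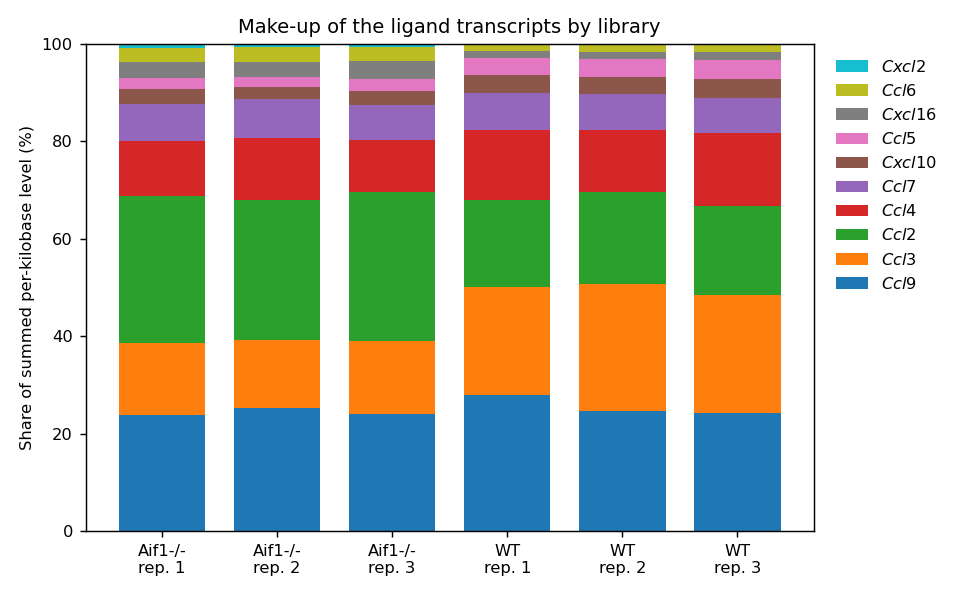
Share (%) of each ligand in the summed per-kilobase level of the 10 ligands, 1 bar per library, *Aif1*-/- libraries left of WT libraries. The *Ccl2* segment is wider in the *Aif1*-/- bars, with a mean of 29.9% against 18.3% in the WT bars, and the *Ccl3* segment is narrower, with a mean of 14.6% against 24.1%.

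Neighbours in a cluster differed in direction. The cluster that runs over 136.806 kb from the start of *Ccl5* to the start of *Ccl4* held 5 ligands, all tested. Of these *Ccl6* was higher in *Aif1*-/- cells, between *Ccl9* and *Ccl3*, which were lower, and *Ccl5* and *Ccl4* were lower at its ends. In the cluster that starts with *Ccl2*, *Ccl12*, which encodes another CCR2 ligand of mice, had 434, 428 and 379 normalized counts in *Aif1*-/- libraries and 496, 371 and 461 in WT libraries. These overlapped, and the log2 fold change was −0.10 (95% interval −0.38 to 0.19, edgeR adjusted p = 0.697). *Ccl11* with 11 reads over the *Aif1*-/- libraries and 5 over the WT libraries, *Ccl8* with 1 and 15, and *Ccl1* with 0 in both were below the filter on low counts. The calls in this cluster were therefore *Ccl2* alone.

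**Figure D4:**
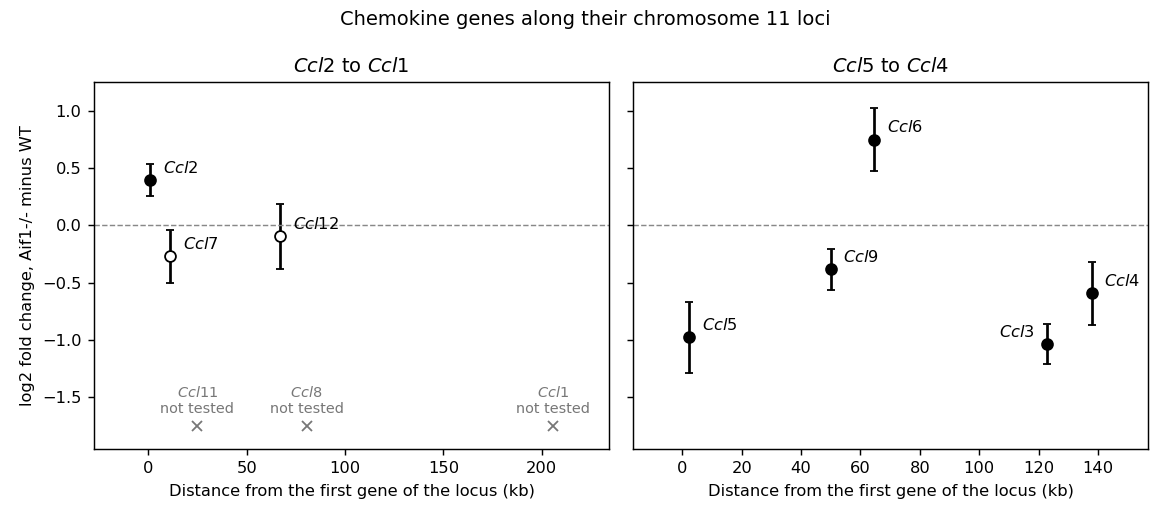
Log2 fold change (*Aif1*-/- minus WT, with its 95% interval) of the chemokine genes of chromosome 11 by the distance (kb) of each gene's midpoint from the start of its cluster; filled circles are adjusted p under 0.05 in edgeR's test, open circles are not, and grey crosses mark genes below the filter on low counts, placed at the foot of the panel with no value. *Ccl6* at 0.75 stands above 0 between *Ccl9* and *Ccl3*, and *Ccl2* at 0.40 stands above 0 beside *Ccl7* at −0.27.

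The log2 ratio of the reads of 2 ligands in each library was compared for 4 pairs, of which 3 are neighbours on chromosome 11. The ratio of *Ccl2* to *Ccl7* was higher in *Aif1*-/- cells, by 0.67 on the log2 scale. The ratio of *Ccl3* to *Ccl4* differed by −0.44 and that of *Ccl9* to *Ccl6* by −1.13. The CXC pair, *Cxcl10* to *Cxcl2*, lies in separate loci of chromosome 5 and differed the most, by −2.74, with ratios of 4.34, 4.20 and 4.76 in *Aif1*-/- libraries and 64.0, 15.04 and 26.8 in WT libraries. In none of the 4 pairs did the genotypes overlap, and each gave an exact permutation p of 0.1 (0.1 also after Benjamini-Hochberg adjustment over the 4 pairs), the smallest these libraries allow. For *Ccl2*/*Ccl7*, *Ccl9*/*Ccl6* and *Cxcl10*/*Cxcl2* each ligand alone already separated the genotypes, in opposite directions. Their lack of overlap and their p were therefore fixed by the single-ligand values and are no separate evidence.

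**Figure D5:**
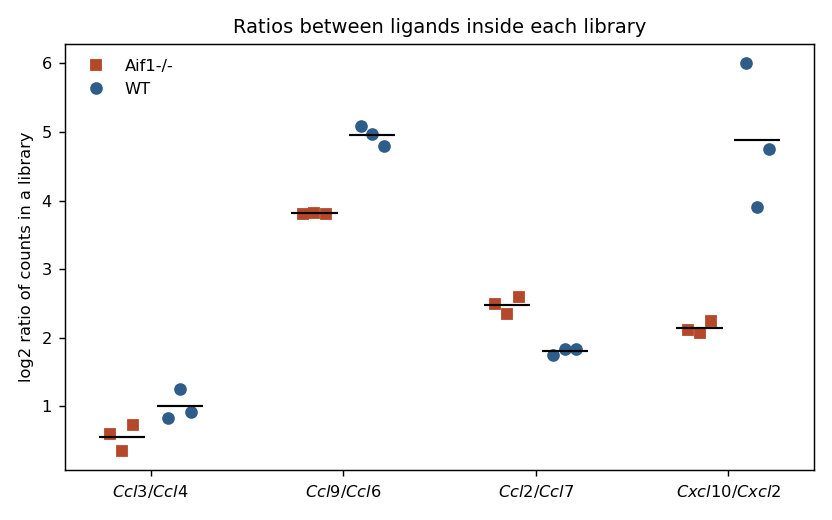
Log2 ratio of the reads of 2 ligands inside each library for 4 pairs, *Aif1*-/- libraries as red squares left of WT libraries as blue circles, with a bar at each mean. The *Aif1*-/- libraries lie below the WT libraries for *Ccl3*/*Ccl4*, *Ccl9*/*Ccl6* and *Cxcl10*/*Cxcl2* (differences of the means −0.44, −1.13 and −2.74), and above them for *Ccl2*/*Ccl7* (0.67).

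Most of the other chemokine ligands of the mouse had few or no reads. Of 31 listed, 28 were matched to a single gene (*Ccl19*, *Ccl21a* and *Ccl21b* have several and were not used), and 21 of these were below the filter, 5 of them with 0 reads in all libraries. Of the 7 tested, 3 were higher in *Aif1*-/- cells and 1 was lower. *Pf4*, a platelet chemokine also made by macrophages, had 1726, 1799 and 1709 normalized counts in *Aif1*-/- libraries and 889, 813 and 974 in WT libraries. Its groups were far apart, with a log2 fold change of 0.97 (edgeR adjusted p = 1.68e-05). The other called genes were named after their values were seen, because they had very few reads in 1 genotype. They passed the filter on low counts only through the genotype with more reads, so their direction was favoured in advance. *Ppbp*, next to *Pf4*, had 56 reads over the *Aif1*-/- libraries and 3 over the WT libraries, a ratio of 23.7 with a 95% counting interval of 7.71 to 118. *Cxcl14* had 112 reads over the *Aif1*-/- libraries and 6 over the WT libraries (ratio 23.7, interval 10.6 to 66.0). *Ccl27a*, which has a near-identical copy and overlaps *Il11ra1*, had 7 reads over the *Aif1*-/- libraries and 58 over the WT libraries. These intervals cover counting error only, and not the choice of these genes by their values.

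Since *Pf4* and *Ppbp* are also products of platelets, markers of other cells were summed in each library. The 5 platelet and megakaryocyte markers came to 299 to 359 normalized counts in *Aif1*-/- libraries and 80.4 to 182 in WT libraries. Nearly all of the difference was *Treml1* (log2 fold change 1.94), while *Gp1bb* had 0 reads throughout and *Gp9* had 2 reads over the *Aif1*-/- libraries and 0 over the WT libraries. *Gp1ba* (log2 fold change 0.08, edgeR adjusted p = 0.917) and *Itga2b* (−0.49, edgeR adjusted p = 0.606) had reads in both genotypes and did not pass. The neutrophil markers, which bear on *Cxcl2*, came to 9.22 to 18.6 normalized counts in *Aif1*-/- libraries and 0 to 23.1 in WT libraries, with 5 of the 7 at 0 in all libraries. The dendritic cell markers came to 54.6 to 101 in *Aif1*-/- libraries and 42.2 to 53.5 in WT libraries, with *Ccr7* at 0, and their part in the ligand differences was not tested. Markers of lymphocytes, fibroblasts and mast cells came to at most 22.6 normalized counts in any library, and 4 of 7, 2 of 6 and 4 of 5 of them had 0 reads.

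Some receptors of the 10 ligands were also expressed. *Cxcr2*, the receptor of the *Cxcl2* product, was below the filter on low counts, with 17 reads over the *Aif1*-/- libraries and 11 over the WT libraries. *Ccr1*, the receptor of the products of *Ccl3*, *Ccl5*, *Ccl6* and *Ccl9*, had 382, 333 and 383 normalized counts in *Aif1*-/- libraries and 74.4, 80.6 and 53.2 in WT libraries. The lowest *Aif1*-/- library was several times the highest WT library, and the log2 fold change was 2.40 (edgeR adjusted p = 5.05e-06). *Ccr2* was higher from a low level, named after its values were seen, with 99 reads over the *Aif1*-/- libraries and 18 over the WT libraries (log2 fold change 2.77, edgeR adjusted p = 0.0157). *Ccr3* (log2 fold change 2.80, edgeR adjusted p = 0.0522), *Cxcr3* (−0.71, edgeR adjusted p = 0.135) and *Cxcr6* (0.17, edgeR adjusted p = 0.700) did not pass. *Ccr2* and *Ccr3* met the filter on low counts only through the *Aif1*-/- libraries, so their direction was favoured in advance. Of 5 atypical receptors, which bind chemokines without signalling migration, 2 were tested and neither passed: *Ackr4* had a log2 fold change of −0.24 (edgeR adjusted p = 0.620) and *Ccrl2* one of −0.23 (edgeR adjusted p = 0.269).

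Of 7 genes for proteins that cut, shed or hold these ligands, 5 were tested. *Adam10*, a sheddase of CXCL16, had 9571, 9489 and 9376 normalized counts in *Aif1*-/- libraries and 7418, 7266 and 7222 in WT libraries. It was higher in *Aif1*-/- cells together with its substrate's gene, at a log2 fold change of 0.38 (edgeR adjusted p = 0.00112), and *Adam17* did not pass (0.17, edgeR adjusted p = 0.0862). *Mmp12*, a macrophage metalloproteinase that cleaves CC and CXC chemokines, fell to 6932, 6919 and 6606 normalized counts in *Aif1*-/- libraries, against 21748, 23171 and 21068 in WT libraries (log2 fold change −1.69, edgeR adjusted p = 7.49e-08). *Sdc1*, a heparan sulfate proteoglycan of the cell surface, was also lower (log2 fold change −1.47, edgeR adjusted p = 2.08e-05), and *Sdc4* did not pass (−0.24, edgeR adjusted p = 0.0734).

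Of 8 cytokines that induce chemokine genes, 4 were tested. *Csf1*, the gene of the growth factor that was also in the medium, had 198, 200 and 205 normalized counts in *Aif1*-/- libraries and 311, 297 and 342 in WT libraries, a log2 fold change of −0.66 (edgeR adjusted p = 0.00287). *Tnf*, a strong inducer of *Ccl2*, *Cxcl2* and *Ccl3* through NF-kB, had 921, 895 and 972 in *Aif1*-/- libraries and 846, 1062 and 861 in WT libraries. These overlapped, with a log2 fold change of 0.01 (95% interval −0.22 to 0.23, edgeR adjusted p = 0.969). *Il1b* was higher in *Aif1*-/- cells from few reads, with 55 over the *Aif1*-/- libraries and 23 over the WT libraries (log2 fold change 1.57, edgeR adjusted p = 0.0454, named after its values were seen). Like *Ccr2*, *Il1b* met the filter on low counts only through the *Aif1*-/- libraries. *Ifnb1* was close to the limit of the filter and did not pass (−0.48, edgeR adjusted p = 0.708).

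For the called ligands at the ends of the range, the tested genes whose centred log2 profile over the 6 libraries was nearest were looked up. Nearest to *Ccl3* were *Kcnh2*, a potassium channel (distance 0.080), *Stat2*, a transducer of interferon signals (0.10), and *Edil3*, a secreted matrix protein (0.15), with log2 fold changes of −1.07, −1.06 and −1.07. Nearest to *Cxcl2* were *Pde1c*, a cyclic nucleotide phosphodiesterase, *Col15a1*, a collagen, and *Treml1*, at distances of 0.62, 0.75 and 0.88. The *Cxcl2* neighbours were farther away. These distances rest on 6 libraries in 2 groups, so that any gene with a similar fold change and small spread comes near.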

How the data were processed

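Single-end libraries were made after removal of ribosomal RNA, 3 from *Aif1*-/- and 3 from WT cells, and were grouped by their labels. The authors trimmed reads (Trim Galore 0.5), aligned them to GRCm38 at 1 location at most (TopHat2 2.0.13) and counted them on genes of Ensembl release 84 (HTSeq 0.6.1p1, default settings). The deposited values are these raw counts, with no normalization. Rows that name no gene were left out. Among them, reads matched to no gene were 33.6% to 35.7% of counted reads in *Aif1*-/- libraries and 25.5% to 40.4% in WT libraries. Because a read was kept at 1 location, close paralogs may exchange reads. Symbols, coordinates and exon lengths came from GENCODE M21, which matched 47310 of 47729 genes.

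The whole table was fitted on genotype with edgeR 4.0.16 (R 4.3.3, limma 3.58.1): TMM normalization, the default expression filter, the quasi-likelihood test and Benjamini-Hochberg adjustment over 17406 genes, at a threshold of 0.05. Pair ratios used counts plus 0.5 and exact two-sided permutation tests over 20 splits. On simulated counts of these 17406 genes, edgeR called 40.3%, 83.6% and 98.5% of genes given a log2 change of 0.5, 1 and 2, with 9 false calls. Changes were placed only in genes above a minimum mean count, and each gene had the same dispersion in both genotypes. The real WT libraries spread more than the *Aif1*-/- libraries, so these rates may not hold for them. The ligands and all lists were chosen with earlier results of these data known. Outside the ligands, every called gene of a list was named where its average log2 CPM was 0 or more, and for the called ligands with the lowest and highest fold change the 3 nearest genes of average log2 CPM of at least 2. Not every listed receptor is reported here. Alternatives were DESeq2 1.42.0, limma-voom, other scalings and filters, a block for replicate number, leaving out each library, and only genes with no gene on the other strand.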

Additional observations from a re-analysis of the deposited data

How the results depend on the processing

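Of 146 ligand fold changes recomputed under the alternatives, 144 kept their direction and their side of the threshold, 0 reversed, and the other 2 were *Ccl9* without *Aif1*-/- replicate 1 or 3. With each library left out, 4 ligands were called higher every time and 4 to 5 lower. Among genes with no gene on the other strand only 6 ligands remained, of which 1 was called higher and 4 lower, since *Ccl2*, *Ccl6*, *Cxcl10* and *Cxcl16* were not in that fit. Over all genes that fit of 9842 genes called 783 higher and 1067 lower, against 1399 and 1832 of 17406. Leaving out a library gave 874 to 2404 genes higher and 1166 to 2485 lower, the most without WT replicate 3. The other chemokine ligands called higher were 1 under the filter of at least 50 counts in at least 3 libraries and 3 to 4 with a library left out, and those called lower were 0 under that filter, 0 among genes with no gene on the other strand and 1 to 2 with a library left out, 2 of them without WT replicate 3. Other scalings moved the median of all genes by at most 0.0077 on the log2 scale.

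The replicate numbers showed no sign of pairing the libraries. The deviations of same-numbered *Aif1*-/- and WT libraries correlated at 0.06, −0.08 and −0.09, and the libraries did not all correlate best with their own number. This check rests on 3 libraries a genotype and cannot exclude pairing. With the number as a block 4 ligands were called higher and 5 lower, and over all genes 1267 and 1605.

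At 10 to 45 reads per WT library, *Cxcl2* has the least precise level. *Cxcl1*, *Cxcl3*, *Cxcl9* and *Cxcl11* were below the default filter on low counts and are given as reads only. With 3 libraries a genotype, permutation cannot give an exact p below 0.1, and counts of RNA say nothing of secreted protein.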
